A study of Mus musculus with 2 samples.

Results

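The arterial endothelial genes described here are Sox17, Gja4, Gja5, Bmx, Fbln5, Mecom, Stmn2, Alpl and Ptprr, 9 of the 20140 genes in the deposited tables. They were taken by name, in the endothelial clusters and in every other cluster, and the 9 names all matched a row. The study used droplet single-cell RNA sequencing (10X Genomics) of submandibular salivary glands from female C57BL6/J mice aged 14 weeks. In the ligated group a metal clip had closed the main submandibular and sublingual ducts for 14 days before harvest. In the mock group the ducts were found but not clipped, and the mice healed for the same 14 days. Each group is 1 library made from 2 pooled glands, so there is no replicate. The dissociated cells of both groups were depleted of EpCAM-bearing epithelial cells and Ter119-bearing red cells and then of dead cells, so the values describe a stroma-enriched suspension and not the whole gland. No p-value or error across animals is possible, and every difference below compares these 2 libraries, not the conditions.

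The deposited values are cluster means: for each gene, the mean over the cells of a cluster of its unique molecular identifiers (UMIs, each a tag for 1 captured transcript) per 10000 UMIs of the cell. All cells fall into 12 clusters, RNA.0 to RNA.11, and a Pdgfra, Pdgfrb and Gli1 subset of the same cells into 5. The cell numbers, recovered from the weights that join the libraries' means, were 4199 in the mock and 11406 in the ligated library. Cluster RNA.4 held 226 mock cells, 5.38% of the library (95% exact Clopper-Pearson interval 4.72 to 6.11%), and 531 ligated cells, 4.66% (4.28 to 5.06%). These intervals cover counting error only. Cluster RNA.0 held 2363 mock cells, 56.3% of the library, and 2948 ligated cells, 25.8%. RNA.3 of the subset held 82 and 260. The depth behind a cluster mean can only be approximated, at a median near 6477 UMIs a cell in RNA.4 of the mock and 6370 in the ligated library.

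Arteries, capillaries and veins are lined by endothelial cells that share a core of genes but differ in identity. Arterial identity is set by VEGF and Notch signalling together with SOXF and ETS transcription factors, and arterial endothelium is marked by its gap junction connexins and by elastic fibre proteins. In a gland, arterioles run beside the ducts and feed the capillary bed around the acini. Sox17, a SOXF transcription factor, and Mecom, a zinc finger transcription factor, are regulators of arterial fate. Gja4 and Gja5 encode connexins that couple neighbouring endothelial cells. Bmx encodes a TEC-family tyrosine kinase, and Ptprr a receptor-type tyrosine phosphatase that acts on MAP kinases. Fbln5 encodes a secreted glycoprotein of elastic fibres, and Alpl the tissue-nonspecific alkaline phosphatase. Stmn2 encodes a microtubule-destabilising protein best known from neurons.

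All 9 are protein-coding genes, and their positions are from GENCODE vM21 on GRCm38, the genome also called mm10. Sox17 lies on chromosome 1 from 4490931 to 4497354 on the minus strand, and Gja4 on chromosome 4 from 127311421 to 127314039 on the minus strand. Gja5 lies on chromosome 3 from 96904693 to 97077416 on the plus strand. Bmx lies on chromosome X from 164192842 to 164258193, and Fbln5 on chromosome 12 from 101746565 to 101819055, both on the minus strand. Mecom lies on chromosome 3 from 29951296 to 30548008 on the minus strand, and Stmn2 on the same chromosome from 8509360 to 8561606 on the plus strand. Alpl lies on chromosome 4 from 137741733 to 137796384 on the minus strand, and Ptprr on chromosome 10 from 116018213 to 116274932 on the plus strand. Exons of 4 of the genes overlap an antisense gene: Gm37587 for Sox17, Gpr89 for Gja5, Mecomos for Mecom and 4933416C03Rik for Ptprr. Whether the counting used strand is not given in the sources used here, so these 4 are uncertain to that extent. The antisense genes with a row were low in RNA.4: Gm37587 was listed at 0 in mock and 0.152 in ligated, Gpr89 at 0.183 and 0.212, and Mecomos at 0.0765 and 0.0676 UMIs per 10000.

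The promoters of Gja4, Gja5 and Bmx are shown because the results turn on these genes: the connexins differed in how far RNA.4 held them, and Bmx was the member that differed most between the libraries in RNA.4. They were chosen after the values were seen. Each line is the 250 bases before the annotated start in RefSeq's GRCm38.p6 annotation, 5′ to 3′ on the gene's strand. Capitals mark letters of 3 arterial transcription factor motifs on either strand: RBPJ, the Notch effector (TGGGAA), SOX (ACAAT) and ETS (CAGGAA).
Gja4 (chr4:127314040-127314289, minus strand): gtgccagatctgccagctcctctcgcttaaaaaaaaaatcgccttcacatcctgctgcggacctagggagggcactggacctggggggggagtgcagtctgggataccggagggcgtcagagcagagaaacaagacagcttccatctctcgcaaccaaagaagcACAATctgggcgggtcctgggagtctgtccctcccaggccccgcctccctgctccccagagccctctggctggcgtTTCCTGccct
Gja5 (chr3:97032152-97032401, plus strand): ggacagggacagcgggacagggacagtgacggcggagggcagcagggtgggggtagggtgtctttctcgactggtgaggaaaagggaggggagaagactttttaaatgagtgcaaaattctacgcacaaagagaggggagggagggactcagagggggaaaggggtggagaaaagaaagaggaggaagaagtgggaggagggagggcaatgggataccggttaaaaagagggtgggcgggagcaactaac
Bmx (chrX:164258194-164258443, minus strand): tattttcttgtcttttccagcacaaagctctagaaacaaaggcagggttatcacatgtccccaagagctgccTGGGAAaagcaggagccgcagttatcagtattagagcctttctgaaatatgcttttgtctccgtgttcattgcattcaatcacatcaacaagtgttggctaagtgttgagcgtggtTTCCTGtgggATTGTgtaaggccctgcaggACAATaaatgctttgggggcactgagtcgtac
The Bmx window held all 3 motifs: RBPJ at 178 to 173 bases before the start, ETS at 62 to 57, and SOX at 52 to 48 and at 32 to 28. The Gja4 window held SOX at 86 to 82 and ETS at 10 to 5, and the Gja5 window held none of them. The Gja5 window, before its only listed RefSeq start, lies inside the gene span given above and not at its 5′ end. Over 32851 promoter windows of the same length, 21.6% held the RBPJ letters, 27.7% the SOX letters, 25.7% the ETS letters and 1.67% all 3. The table has windows for 7 of the 9 members, with 13 starts between them, and has no entry for Sox17 and Stmn2. Of those 13 starts, 2 held RBPJ, 2 SOX and 6 ETS letters, and 7 held none. Such a match is a description of letters in a window and says nothing of binding, and the motifs overlap no other listed match in these 3 windows.

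The first question was where these genes are expressed. Cluster RNA.4 had the highest value of 8 of the 9 genes in the mock library and of all 9 in the ligated library. The exception was Gja4 in mock, which was 5.39 UMIs per 10000 in RNA.6 and 3.94 in RNA.4. RNA.4 is called endothelial-like because 13 of 13 shared endothelial markers, such as Ptprb (25.2 in mock, 19.7 in ligated) and Flt1 (22.8 and 20.9), reached 0.5 UMIs per 10000 there. Of 28 further arterial genes, 25 reached 0.5 in RNA.4. The arterial label does not describe the whole cluster: 10 of 10 venous and 6 of 12 lymphatic markers also reached 0.5, among them Ccl21a at 5.73 in mock and 7.56 in ligated. The means of RNA.4 therefore cover genes of several endothelial types. The lists are not separate, since Emcn is both a venous and a shared marker and Kdr both a shared and a capillary one. RNA.0, where 12 of 13 shared endothelial and 10 of 10 capillary markers reached 0.5, is the other endothelial-like cluster. In RNA.4, 9 of 10 capillary markers also reached 0.5, so that count does not set the clusters apart. Of the venous and lymphatic markers, 5 and 2 reached 0.5 in RNA.0 as well. The capillary markers summed to 218 in mock and 116 in ligated in RNA.4, and to 321 and 150 in RNA.0.

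**Figure D1:**
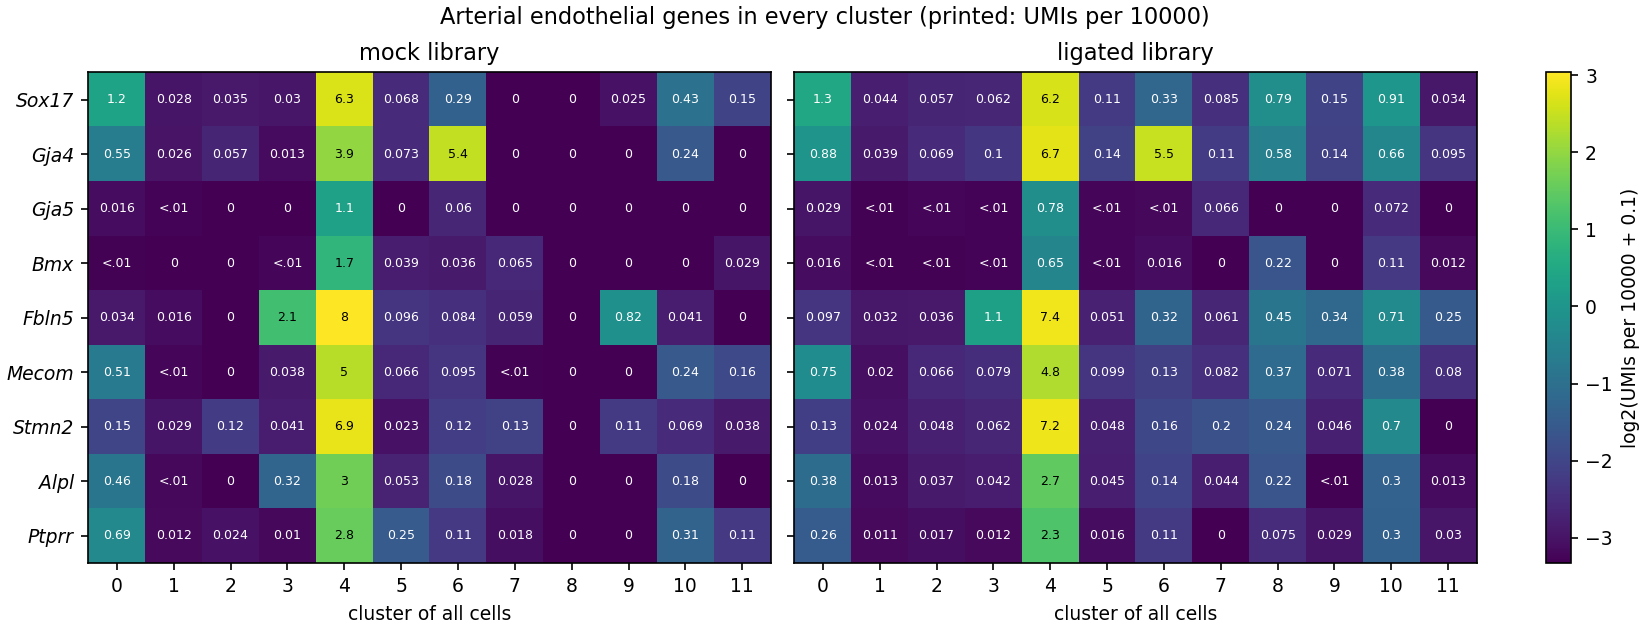
Mean level of each of the 9 genes (rows) in each of the 12 clusters of all cells (columns), for the mock library (left) and the ligated library (right). Printed numbers are UMIs per 10000 and the colour is log2 of that value plus 0.1; the column of RNA.4 is the brightest in both panels, and Gja4 is also bright in RNA.6 (5.39 in mock, 5.54 in ligated).

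Within each library, all 9 genes were at least 1 log2 unit higher in RNA.4 than in RNA.0 (values plus 0.1, higher value at least 0.5 UMIs per 10000). Over all genes reaching 0.5, 4.84% did so in mock (184 of 3804) and 3.32% in ligated (129 of 3880). The clusters were made from these same cells and genes, so this is a description and not a test. Sox17 was 6.33 against 1.20 in mock and 6.23 against 1.31 in ligated, the smallest difference of the 9 in ligated at 2.16 on the log2 scale. Fbln5 was 8.03 against 0.0344 in mock and 7.42 against 0.0974 in ligated, differences of 5.92 and 5.25. Ordered by this difference, Fbln5 had rank 2 of 3804 genes in mock and rank 1 of 3880 in ligated.

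The 9 genes differed in how far they were shared with RNA.0. Sox17, Gja4, Mecom, Alpl and Ptprr were 4.09 to 9.79 times as high in RNA.4 as in RNA.0 over both libraries. Gja5, Bmx, Fbln5 and Stmn2 were 27.1 to 551 times as high. The top of that range is Bmx in mock, whose RNA.0 mean of 0.00314 rests on only about 6.2 UMIs. Bmx was 40.4 times as high in RNA.4 as in RNA.0 in the ligated library. The connexins, compared each with itself, differed in the same way: Gja4 was 7.20 and 7.67 times as high in RNA.4 as in RNA.0 in mock and ligated, and Gja5 71.1 and 27.1 times.

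Multiplying each cluster mean by its number of cells shows which cells hold a gene's summed expression, on the scale of UMIs per 10000. RNA.4 held 92.6% of Bmx in mock and 71.3% in ligated. It held 83.6% and 75.1% of Gja5, 77.3% and 81.5% of Stmn2, and 77.4% and 64.3% of Fbln5. For these 4 genes a single small cluster thus held most of the summed expression in both libraries. The other 5 were split with RNA.0, whose cells carried less of each gene but were far more numerous. RNA.4 held 32.6% of Sox17 in mock and 41.3% in ligated, while RNA.0 held 64.6% and 48.3%. Mecom was 47.2% and 47.9% in RNA.4, and Alpl 36.4% and 49.8%. Ptprr moved most between the libraries, from 27.1% in RNA.4 and 69.4% in RNA.0 of mock to 56.6% and 35.1% in ligated.

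**Figure D2:**
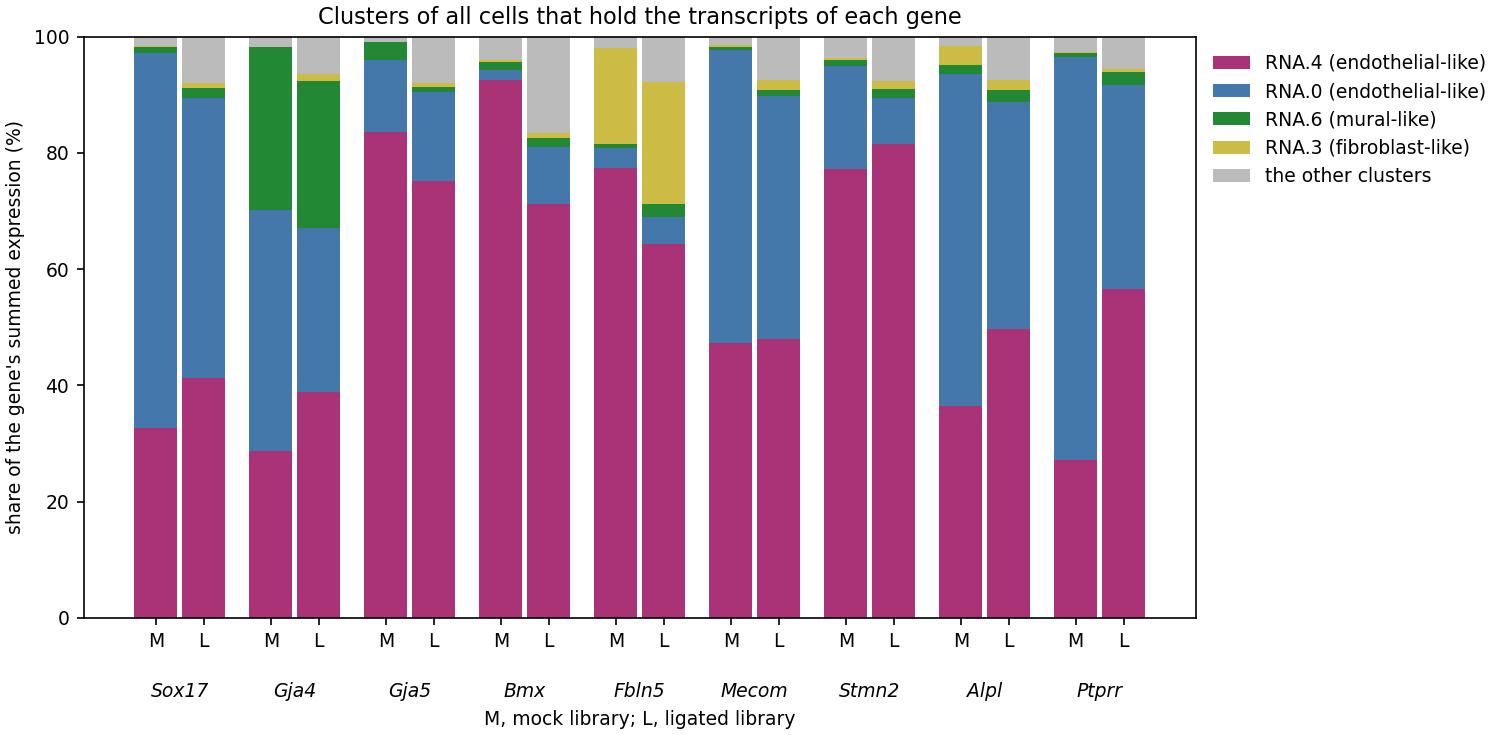
Share of each gene's summed expression (y axis, percent) held by RNA.4, RNA.0, RNA.6, RNA.3 and the other clusters together, with the mock (M) and ligated (L) library side by side for each gene. RNA.4 takes most of each bar for Gja5, Bmx, Fbln5 and Stmn2, and RNA.6 takes 27.9% and 25.3% of Gja4.

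Gja4 and Fbln5 also had a site of expression outside the endothelial-like clusters. Gja4 was 5.39 in mock and 5.54 in ligated in RNA.6, a mural-like cluster where 12 of 12 pericyte and smooth muscle markers reached 0.5. In the mural-like cluster RNA.2 of the subset Gja4 was 6.34 in mock and 7.32 in ligated. Other members were at or near 0 there. Ptprr was at 0 in both libraries, Sox17 was at 0 in mock and 0.0758 in ligated, and the 13 shared endothelial markers summed to 8.93 and 7.42 against 149 and 126 in RNA.4. In RNA.6 of all cells the same markers summed to 23.1 and 17.1. Fbln5 was 2.06 in mock and 1.12 in ligated in RNA.3, a fibroblast-like cluster where 11 of 11 fibroblast markers reached 0.5, a difference of -0.82 on the log2 scale. Only 1 member reached 0.5 in either library in RNA.3, Fbln5, and only 1 in RNA.6, Gja4, which differed by 0.04. Neither differed by 1 or more, against 9.78% and 9.41% of the genes tested there. With 1 member in each cluster, this is not read as a property of the list. RNA.3 held 16.5% of the summed Fbln5 in mock and 21.0% in ligated. Below that level, Alpl in RNA.3 was 0.320 in mock and 0.0419 in ligated (-1.57), and Fbln5 in RNA.6 was 0.0836 and 0.316 (1.18); neither was counted.

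The main comparison set the ligated against the mock library within RNA.4. The arterial genes stood at nearly the same summed level, 38.97 UMIs per 10000 in mock and 38.80 in ligated. A gene was counted as different where log2((ligated + 0.1)/(mock + 0.1)) was 1 or more in size and at least one library reached 0.5 UMIs per 10000. By that rule 1 of the 9 differed, Bmx, against 6.1% of all genes tested in this cluster (239 of 3918), so a count of 1 in 9 is not read as a property of the list. The median log2 difference of the 9 genes was -0.11, and it became 0.13 when values were divided by the summed shared endothelial markers. Over all genes tested the median was -0.0035.

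The transcription factors were level. Sox17 was 6.33 in mock and 6.23 in ligated, and Mecom 5.01 and 4.75, log2 differences of -0.02 and -0.07. The connexins lay on opposite sides of 0. Gja4 was 3.94 in mock and 6.75 in ligated, a difference of 0.76, the largest of the 9 in the direction of the ligated library. Gja5 was 1.14 in mock and 0.781 in ligated, a difference of -0.49. Neither connexin reached a difference of 1 on the values as deposited. Gja4 came to 1.01 after division by the shared endothelial sum, a scaling that shifts every gene of this cluster by up to 0.25, and by less where the value is low beside the added 0.1. As shares of the summed level of the 9 genes, Gja4 went from 10.1% to 17.4%.

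Among the enzymes, Bmx was 1.73 in mock and 0.649 in ligated, a log2 difference of -1.29. These means rest on about 253 and 219 UMIs. Ptprr was 2.84 in mock and 2.33 in ligated (-0.28), and Alpl 3.03 and 2.68 (-0.17). The kinase was thus the gene furthest from level, and both phosphatases were short of the rule. Fbln5 was 8.03 in mock and 7.42 in ligated (-0.11), and Stmn2 6.94 and 7.21 (0.05). The elastic fibre gene and the stathmin were therefore close to equal in the libraries.

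**Figure D3:**
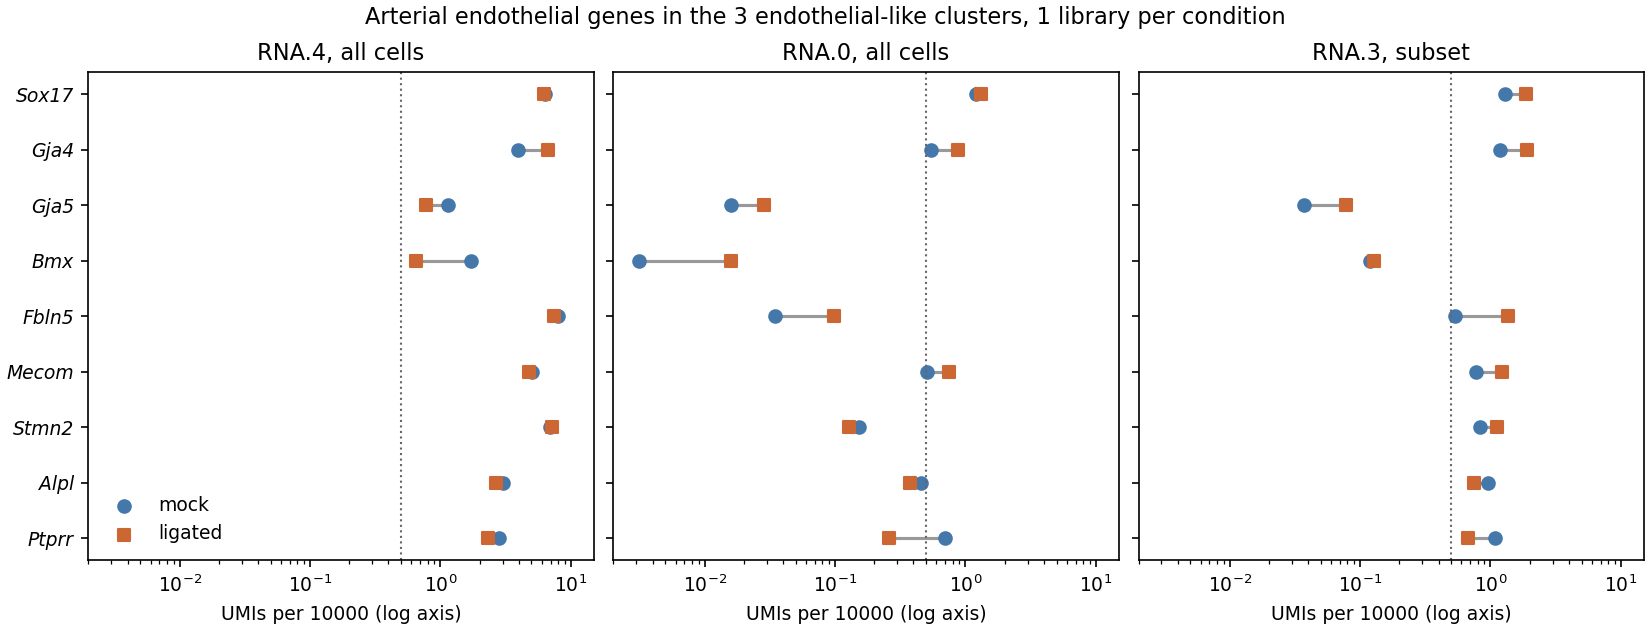
Level of each of the 9 genes in UMIs per 10000 (x axis, log scale) in the mock library (circles) and the ligated library (squares), in RNA.4 and RNA.0 of all cells and in RNA.3 of the subset; the dotted line marks 0.5. Most pairs lie close together, and the gaps past the rule are Bmx in RNA.4 (1.73 and 0.649), Ptprr in RNA.0 (0.693 and 0.260) and Fbln5 in the subset (0.538 and 1.36).

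RNA from several other cell types, but not all, was higher in the ligated library of this cluster. The T and natural killer cell markers summed to 0.394 in mock and 3.80 in ligated, with Nkg7, Gzma and Gzmb past the rule among 10. Fibroblast markers summed to 0.736 and 3.18, with Dcn, Col1a2 and Gsn past it among 11, and macrophage markers to 0.0916 and 1.44 with 4 of 9 at 0 in mock. Ductal and acinar markers summed to 0.492 and 2.12, with Klk1 past the rule among 13. Klk1 made up most of these sums (0.296 and 1.87), and the median difference of that list was 0. Mural markers summed to 0.968 and 1.44. Schwann and neural markers were not higher, at 1.30 and 1.23, and neutrophil markers were near 0 in both, at 0.0165 and 0.0216. Set against their mean over the whole library, 53 markers of other cell types stood in RNA.4 at 2.58% (median) in mock and at 10.2% in ligated. With that share of the whole library's profile subtracted, Bmx stayed past the rule, at -1.30 against -1.29. Averaged across all cells, Bmx stood at only 0.101 in mock and 0.0424 in ligated. The subtraction was thus bound to change Bmx little, and nothing is read from it. Of 10 venous markers, 3 were past the rule lower in ligated, with Vwf at 2.37 and 0.815, Selp at 1.07 and 0.304 and Vcam1 at 0.842 and 0.150. Another of the 10, Aplnr, was past it higher, at 0.138 and 0.523. The part of these values in the Bmx difference was not tested.

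In RNA.0 the members were low and 4 of the 9 reached 0.5. Of these, 1 was past the rule, Ptprr, against 6.6% of all genes tested (254 of 3849) and 2.68% lower in ligated. Ptprr was 0.693 in mock and 0.260 in ligated, a difference of -1.14. The phosphatase was thus lower in ligated in RNA.0 while in RNA.4 it differed by only -0.28; the difference between the clusters was not tested. Sox17 was 1.20 and 1.31 (0.12), Gja4 0.547 and 0.880 (0.60), and Mecom 0.511 and 0.748 (0.47). These 3 were somewhat higher in ligated without reaching the rule. Alpl, at 0.457 and 0.378, and Stmn2, at 0.152 and 0.128, lay under 0.5, as did Fbln5 (0.0344 and 0.0974), Gja5 (0.0160 and 0.0288) and Bmx (0.00314 and 0.0161). The sum of all 9 was 3.61 in mock and 3.85 in ligated, and their median difference was 0.15 against 0.01 over all genes tested. Other-cell markers in RNA.0 stood at 3.72% (median) of their level in the whole mock library and 9.33% in ligated.

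The endothelial-like clusters also stood in different proportions. Of the cells in RNA.4 and RNA.0 together, RNA.4 made up 8.73% in mock (226 of 2589, interval 7.67 to 9.88%) and 15.3% in ligated (531 of 3479, interval 14.1 to 16.5%). The intervals do not overlap, but they cover counting error only, and each comes from 1 dissociation. As a share of the whole library, RNA.4 was 5.38% in mock and 4.66% in ligated, and RNA.0 56.3% and 25.8%. The higher share of RNA.4 within the pair thus went with a lower library share of RNA.0, not a higher one of RNA.4. Pooling both clusters by cell number, the 9 genes summed to 6.70 in mock and 9.18 in ligated. Gja4 was 0.842 and 1.78 in the pool, a difference of 0.99, and Ptprr 0.880 and 0.575, a difference of -0.54. No member was past the rule in the pool, against 6.5% of all genes tested (251 of 3859), and the median of the 9 was 0.31. With the mock proportion of RNA.4 and RNA.0 in both libraries that median was 0.0025, and Gja4 stood at 0.66. Fbln5 and Stmn2 were at 0.66 and 0.63 in the pool, and at 0.0068 and 0.0025 at the mock proportion. Since venous and lymphatic markers are also found in RNA.4, its share is not a count of arterial cells. A difference in the number of arterial cells and a difference in transcripts per cell cannot be told apart in the pool.

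Over the whole suspension, Ptprr was the member whose mean differed most. Its mean over all cells was 0.562 in mock and 0.191 in ligated, a log2 difference of -1.18. With the ligated cluster means put together in mock proportions the difference was -0.78. Sox17 was 1.04 and 0.703 over all cells, a difference of -0.51 that became 0.10 in mock proportions. Mecom, at -0.25 and 0.27, and Stmn2, at -0.19 and 0.04, also had another sign in mock proportions. The other 6 members kept theirs: Ptprr, Alpl (-0.64 and -0.20), Bmx (-0.49 and -0.43), Gja5 (-0.22 and -0.08) and Fbln5 (-0.05 and -0.03) below 0, and Gja4 (0.11 and 0.53) above it.

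The endothelial-like cluster of the subset, RNA.3 with 82 mock and 260 ligated cells, gave another view of cells that are also in the tables of all cells. It is a repeat of part of the same libraries and not a replicate. Here 7 of the 9 genes reached 0.5 and 1 was past the rule, Fbln5, against 10.5% of all genes tested (433 of 4115). Fbln5 was 0.538 in mock and 1.36 in ligated, a difference of 1.19. Fibroblast markers also stood higher there, with 8 of 11 past the rule and a sum of 32.8 in mock and 87.0 in ligated, and no fibroblast marker was at 0. Since Fbln5 is also a fibroblast gene in these data, those values belong beside its difference; their part in it was not tested.

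The other members of the subset cluster stayed short of the rule. Sox17 was 1.30 in mock and 1.88 in ligated (0.51), Gja4 1.19 and 1.90 (0.63), and Mecom 0.780 and 1.23 (0.59). These regulators and this connexin stood on the ligated side. Stmn2 was 0.829 and 1.12 (0.39), Alpl 0.951 and 0.747 (-0.31), and Ptprr 1.08 and 0.668 (-0.62). Ptprr had the lowest difference of the 9 here, as it had in RNA.0. Gja5 (0.0372 and 0.0783) and Bmx (0.119 and 0.127) did not reach 0.5. The median of the 9 was 0.39, and 0.97 after division by the shared endothelial sum, which was 180 in mock and 117 in ligated in this cluster.

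Elsewhere the members were scarce. The 12 clusters compared, those with at least 50 cells in each library, were 9 of all cells and 3 of the subset. The subset clusters repeat cells of the others, so their pairs of a member and a cluster are counted apart. Among all cells, 19 of 81 such pairs reached 0.5, and in the subset 9 of 27. Of the 19, 3 were past the rule higher in ligated and 2 lower, and of the 9, 1 was higher and 0 lower. Where a member reached 0.5, the share of all genes tested passing the rule in either direction ran from 6.1% (RNA.4) to 25.2% (RNA.10). The pairs not yet named were Gja4, Fbln5 and Stmn2 in RNA.10, which held 85 mock and 60 ligated cells. Gja4 was 0.244 in mock and 0.655 in ligated there, Fbln5 0.0410 and 0.706, and Stmn2 0.0691 and 0.696. RNA.10 is left unnamed, since 12 of 13 shared endothelial and 7 of 9 macrophage markers reached 0.5 in it. The mock means of Fbln5 and Stmn2 there rest on about 3.8 and 6.3 UMIs. Of all genes tested in RNA.10, 23% were past the rule higher in ligated, and their median difference was 0.56, so higher values there were not particular to these members. The summed shared endothelial markers were 90.0 in mock and 81.2 in ligated. In RNA.1, the largest cluster of the ligated library, the highest member value was 0.0286 in mock and 0.0445 in ligated. Clusters RNA.8, RNA.9 and RNA.11, with 25, 17 and 22 cells in mock, were left out of the comparison. RNA.1 and RNA.4 of the subset, with 14 and 10 cells in mock, were left out too.

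The further arterial genes, a list of 28 chosen with earlier results of these data known, were described in the same clusters. In RNA.4, 25 reached 0.5, 1 of them was past the rule higher and 3 lower in ligated, and the median of the 28 was -0.21. Edn1, the precursor of the vasoconstrictor endothelin, was 15.1 in mock and 2.01 in ligated, a log2 difference of -2.85. Cxcl12, a chemokine of arterial and capillary endothelium, was 74.8 and 22.9 (-1.70), and Slc6a6, a taurine transporter, 17.1 and 7.17 (-1.24). Igfbp3, a binding protein for insulin-like growth factors, was the gene higher in ligated, at 5.01 and 12.3 (1.28). These are the 4 genes of the list past the rule, 3 lower and 1 higher in ligated. Tm4sf1, a membrane protein and the next most abundant of the list after Cxcl12, was 30.03 and 30.35.

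Of the 9 Notch receptors, ligands and targets in that list, none was past the rule in RNA.4, and Hey2 and Heyl stayed below 0.5. The ligand Dll4 was 0.968 in mock and 1.28 in ligated (0.37), the ligand Jag2 3.87 and 2.42 (-0.66), and the target Hey1 2.09 and 1.35 (-0.59). The receptors Notch1 and Notch4 differed by -0.34 and -0.37, the ligand Jag1 by -0.22 and the target Hes1 by -0.24. On the values as deposited, Dll4 was thus on the ligated side and the other 6 that reached 0.5 on the mock side. Division by the shared endothelial sum shifts genes of RNA.4 by up to 0.25, as much as Jag1 and Hes1 differed. In RNA.0 the sides were mixed among those reaching 0.5 besides Dll4. Notch1 (0.06) and Hes1 (0.25) were on the ligated side there, and Notch4 (-0.27) and Jag2 (-0.07) on the mock side. In RNA.0, 17 of the 28 reached 0.5, with Dll4 (0.308 and 0.827) and Igfbp3 (8.69 and 23.4) higher in ligated. Cxcl12 (45.8 and 11.1) and Slc6a6 (13.8 and 3.96) were lower there. Igfbp3, Cxcl12 and Slc6a6 thus took the same direction in both endothelial-like clusters, but not only there. Igfbp3 was also past the rule higher in RNA.1, RNA.2, RNA.5, RNA.7 and RNA.10. Cxcl12 was past it lower in RNA.2, RNA.5 and RNA.10, and Slc6a6 in RNA.2 and RNA.10. In RNA.3 and RNA.6 none of these genes was past it. In the subset cluster, Dll4, Vegfc, Eln and Igfbp3 were past the rule higher and Nrp1, Cxcl12, Edn1 and Slc6a6 lower.

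Other endothelial lists gave a frame for the arterial genes. In RNA.4 the 13 shared endothelial markers had a median of -0.10, with Erg higher (0.501 and 1.25) and Eng lower (16.3 and 6.40). The 10 capillary genes had a median of -0.38 in RNA.4 and -0.86 in RNA.0. In RNA.0, Fabp4, a fatty acid binding protein, was 144 in mock and 47.3 in ligated. In RNA.4 Fabp4 was 84.2 and 44.7, short of the rule. The 10 venous genes had a median of -0.56 in RNA.4, and their most abundant, Emcn and Lrg1, were 8.29 and 8.10 and 2.93 and 1.91. The 12 lymphatic genes had a median of -0.23, with the multimerin gene Mmrn1 at 1.33 and 1.07, and the 5 shear response genes -0.29. Klf2 and Klf4, the flow-responsive transcription factors, were 18.7 and 15.3 and 8.67 and 7.31 in mock and ligated. In RNA.4 the median of the 9 arterial genes, -0.11, lay nearest to that of the shared markers. This did not hold in the other endothelial-like clusters. In RNA.0 the arterial median was 0.15, beside 0.06 for the shared and 0.16 for the lymphatic genes. In RNA.3 of the subset it was 0.39, beside -0.27 for the shared, 0.36 for the lymphatic and 0.43 for the venous genes.

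**Figure D4:**
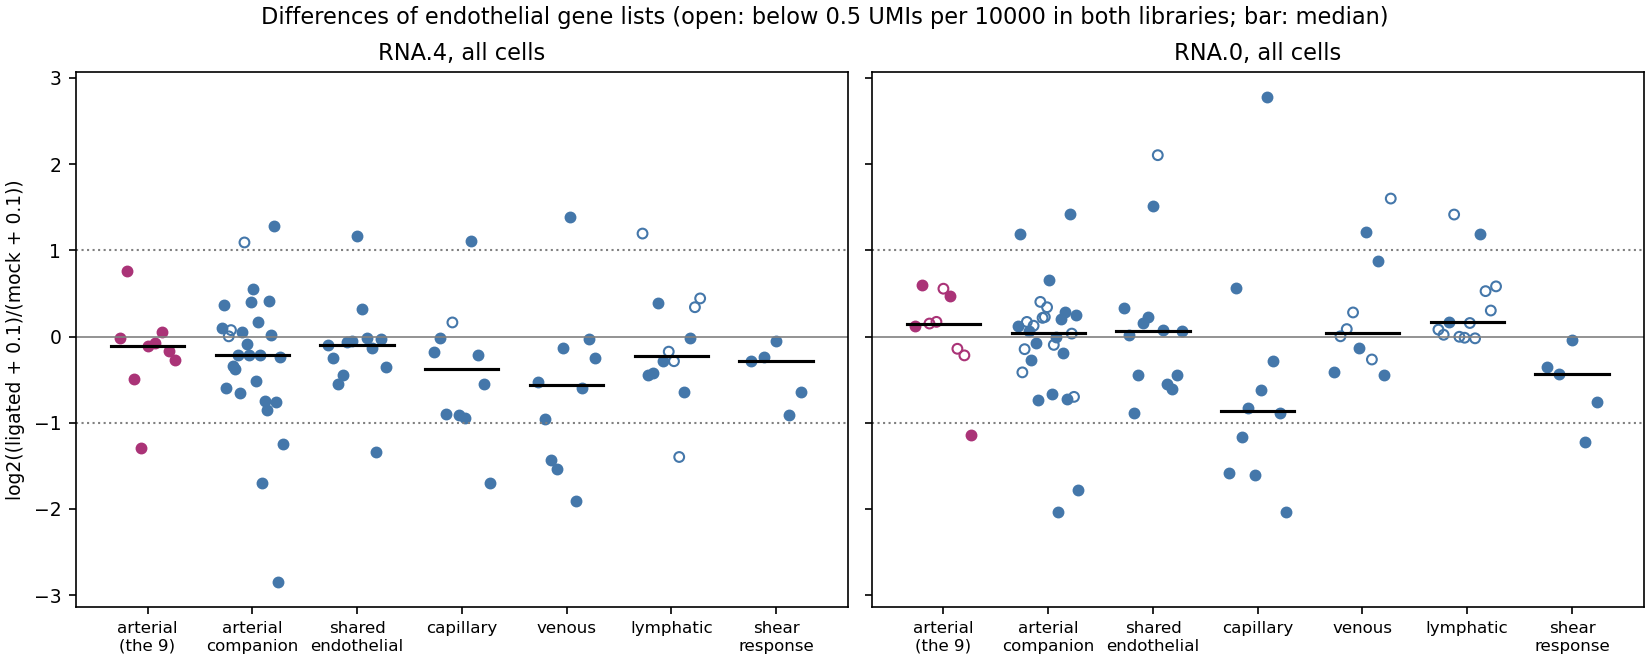
Log2 difference of ligated against mock (y axis, values plus 0.1) for each gene of the 9 arterial genes and of 6 further endothelial lists, in RNA.4 (left) and RNA.0 (right). Each point is a gene, open points stayed below 0.5 UMIs per 10000 in both libraries, the black bar is the list's median and dotted lines mark -1 and 1; in RNA.4 the 9 genes lie within the lines apart from Bmx at -1.29.

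The genes most alike in pattern were sought by Pearson's r of log2(value + 0.1) over the 24 cluster means of all cells, among 7766 genes. The 24 points share 2 libraries and very different cell numbers, so r describes the pattern and carries no test. Sox17 and Mecom were each other's nearest gene (r = 0.97), and Tmem44 and Dll4 came next for Sox17. Gja5 was nearest to Gkn3 and Stmn2 (both 0.95) and then Aif1l. Bmx was nearest to Vwf (0.95), which encodes von Willebrand factor, and then to Gkn3 and St8sia6. Ptprr was nearest to Syt15 (0.95), Jag2 (0.94) and Mecom, and Alpl to Sema3g (0.95), a semaphorin of arterial endothelium, then Tmem44 and Mecom. Stmn2 was nearest to Gja5, Sema3g and St8sia6, and Mecom, after Sox17, to Sema3g and AU021092. Gja4 and Fbln5 had the least similar nearest genes, Cbfa2t3 at 0.87, followed by Procr and Fam13c, and Pcsk5 at 0.89, followed by Chp2 and Lbp. Those are the members that were also expressed in mural-like and fibroblast-like cells. Between members, r over the 36 pairs ran from 0.49, for Fbln5 with Gja4, to 0.97, with a median of 0.82. By Spearman's rho the nearest gene was another one for all 9 members, so the nearest gene depends on the measure of likeness.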

How the data were processed

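Droplet single-cell RNA libraries were read as the authors deposited them, in 4 tables of cluster means, 2 of all cells and 2 of a subset. The deposited unit is neither counts nor CPM. Each deposited value is linear and averages, within a cluster, each cell's UMIs of the gene per 10000 UMIs; every column sums to 10000, and this reading rests on the values. Cell Ranger 6.0.1, Seurat and mm10 are named in the submitters' processing notes without roles; cell filters and clustering are not given in the sources used here.

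The deposited tables hold 20140 genes. From them were computed (Python 3.11.15, pandas 2.3.3, numpy 2.4.6, scipy 1.17.1, matplotlib 3.10.9) cell numbers, as whole numbers whose weights join the split means into the joint means (a multiple where needed to give whole UMI totals), and approximate UMI totals, whose acceptance settings were chosen after seeing the recovered values and which lean upward. 21 gene names that appear as dates were restored from row order in the joint table. The recovery of cell numbers and the size rule were tested on simulated tables, with changes larger than the rule asks. The UMI totals and the restored names were not. With 1 library per condition nothing was tested. A gene passed the size rule where either value reached 0.5 and the log2 ratio, with 0.1 added to both values, was 1 or more in size, in clusters with at least 50 cells per library. 3150 genes were above 0 only in the ligated and 684 only in the mock library; the 9 members were above 0 in both. Without such genes 3.97% of those tested in RNA.4 and 4.26% in RNA.0 reached the size rule.

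The members and 13 gene lists (148 of 150 entries matched) were chosen with earlier results of these data known. All members were named, with the 3 genes most alike each, list genes past the rule in RNA.4 or RNA.0 and the 2 highest in RNA.4 of each endothelial list. The motifs, the promoters printed, the ranks and which lists count as other cell types in a cluster were chosen after seeing the data. Alternatives were pseudocounts of 0.01 and 1, other minimums and sizes, subtraction of the library mean, division by shared endothelial markers, and mock cell numbers.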

Additional observations from a re-analysis of the deposited data

How the results depend on the processing

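With 1 library per condition, no call has a replicate check, and low means rest on few UMIs. The number of members past the rule was small and moved with its settings. It was 1 each in RNA.4, RNA.0 and the subset cluster RNA.3, and 0 in each of these with a pseudocount of 1, with a higher value of at least 2 or with a difference of at least 2. Division by the shared endothelial sum gave 2 in RNA.4 (Gja4 higher at 1.01, Bmx lower at -1.07), 0 in RNA.0 and 4 in the subset cluster. In the pool of RNA.4 and RNA.0 it was 0, and 1 (Gja4) with a pseudocount of 0.01 or with that division. The other alternatives kept these counts. Across the alternatives Bmx in RNA.4 ranged from -1.40 to -0.73, Ptprr in RNA.0 from -1.38 to -0.43 and Fbln5 in the subset cluster from 0.62 to 1.78. In RNA.10, Gja4 ranged from 0.41 to 1.39 and reached a size of 1 in 1 of 3 alternatives, Fbln5 from 0.71 to 3.81 and Stmn2 from 0.67 to 3.16, each in 2 of 3. The median of the 9 in RNA.4 ranged from -0.12 to 0.13. Of 396 single differences recomputed, 67 moved by 1.5 times or more and no called one changed sign. No paired analysis was possible because each condition is 1 library and the labels carry no replicate numbers.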

Other observations

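Markers of macrophages stood beside endothelial genes in RNA.10, a cluster of 85 mock and 60 ligated cells. There 7 of 9 macrophage markers reached 0.5 UMIs per 10000 and summed to 22.4 in mock and 48.0 in ligated. The 13 shared endothelial markers summed to 90.0 and 81.2. The values of Fbln5, Stmn2 and Gja4 are thus means over a cluster with both kinds of RNA. Whether single cells held both, and whether doublets were among them, cannot be seen in cluster means.

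Aqp1, a water channel, was past the rule higher in the ligated library in both endothelial-like clusters, at 3.50 and 7.69 in mock and ligated of RNA.4 and at 0.874 and 6.61 in RNA.0. Aqp1 was also past it higher in RNA.7, RNA.10, RNA.3 of the subset and the mural-like RNA.6 (0.0354 and 0.529). Rgcc, a capillary gene, was 31.0 and 10.3 in RNA.0. Aplnr, the apelin receptor and one of the venous markers, was 0.138 and 0.523 in RNA.4 and 0.994 and 2.44 in RNA.0. Thbd, which encodes thrombomodulin, was 9.35 and 3.95 in RNA.0, and Cd36, a fatty acid transporter, 5.44 and 2.37. Erg, an ETS transcription factor, was 0.488 and 1.58 in RNA.0, and Maf, a transcription factor, 0.555 and 1.40. The other list genes past the rule in RNA.0 belonged to other cell types and were all higher in ligated: Dcn, Gsn, C1qa, Nkg7, Gzmb and Klk1.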
